A study of Rattus norvegicus with 18 samples.

Results

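The interferon response genes described here are 34 genes that macrophages switch on under interferon, followed in CD11b/c+ cells of the rat knee synovium after osteoarthritis (OA) or sham surgery. They were chosen by name, and all 34 of 34 were found among the 30643 genes of each deposited table, and each averaged 10 normalized reads or more in both. The rats were wild type male Sprague Dawley rats aged 12 weeks at surgery, OA was induced by cutting the medial meniscotibial and anterior cruciate ligaments, and sham surgery opened the joint capsule without cutting a ligament. Synovium was collected 4 or 12 weeks later, from 4 rats pooled per library at 4 weeks and 3 rats at 12 weeks, and cells were taken with magnetic beads for CD11b/c, integrins of monocytes, macrophages and neutrophils. By the labels each surgery has 5 libraries at 4 weeks and 4 at 12 weeks, 18 in all, whereas the study's methods give 5 replicates at both times. The comparison asked how the transcriptome of synovial macrophages in OA differs from that after sham surgery.

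Type I interferons bind the receptor chains Ifnar1 and Ifnar2, and the kinases Jak1 and Tyk2 then activate a transcription factor complex that holds Stat2 and Irf9 and binds interferon-stimulated response elements (ISRE) in promoters. Type II interferon, interferon gamma, acts through another receptor and through gamma-activated sites (GAS). In macrophages the induced genes include antiviral effectors, sensors of viral RNA, antigen-processing proteins, chemokines and factors that strengthen or restrain the response itself.

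Matches to both elements were counted in the 250 bases upstream of each start site in the RefSeq promoters of the rat assembly GRCr8, which hold 27 of the 34 genes. Isg15, Usp18, Mx2, Ifit2, Ddx58, Dhx58 and Zbp1 had no entry. The ISRE core was searched as GAAANNGAAA and, for the other strand, TTTCNNTTTC, and the GAS core as TTCNNNGAA, which reads the same on both strands. The cores share the letters GAA, so their matches can overlap. The ISRE core was found in 14 of 27 members (51.9%), against 1140 of 33469 promoters in the table (3.41%). The GAS core was found in 6 of 27 members (22.2%), against 2566 of all promoters (7.67%). Stretches of 6 members are shown in the direction of transcription, taken in the order of the members' mean p over both weeks among those with an ISRE core, because this element is the feature that most of the matched members share. Capitals mark the ISRE core.
Gbp5, chr2:233910898-233910997, plus strand: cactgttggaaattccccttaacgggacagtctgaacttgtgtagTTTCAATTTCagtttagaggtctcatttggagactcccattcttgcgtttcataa
Irf7, chr1:205800038-205800137, minus strand: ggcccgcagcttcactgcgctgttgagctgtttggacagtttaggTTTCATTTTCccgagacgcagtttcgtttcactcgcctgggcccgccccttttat
Tap1, chr20:4668610-4668709, minus strand: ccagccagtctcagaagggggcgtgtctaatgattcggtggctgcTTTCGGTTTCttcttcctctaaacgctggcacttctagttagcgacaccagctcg
Ifit3, chr1:241527237-241527325, plus strand: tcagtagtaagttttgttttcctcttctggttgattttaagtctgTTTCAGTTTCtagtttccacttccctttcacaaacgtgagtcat
Isg20, chr1:142239922-142240021, plus strand: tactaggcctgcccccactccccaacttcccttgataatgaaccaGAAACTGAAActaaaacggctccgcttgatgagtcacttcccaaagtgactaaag
Xaf1, chr10:57415879-57415934, plus strand: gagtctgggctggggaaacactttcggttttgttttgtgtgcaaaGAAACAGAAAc

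The ISRE core of Gbp5 lies 47 to 56 bases before the start site, that of Irf7 60 to 69 bases, that of Tap1 112 to 121 bases, that of Ifit3 35 to 44 bases, that of Isg20 83 to 92 bases and that of Xaf1 2 to 11 bases. A match is a run of letters and no evidence of binding.

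Reads recovered from the deposited values ranged from 4662344 to 18080503 per library. Sham replicate 3 at 4 weeks stood apart, with the fewest reads and with at least 1 read in 84.6% of all genes, the highest share among the 18 libraries. It was also the highest 4-week library for the summed markers of T and NK cells (411 against 168 to 275 normalized reads in the others), B cells (104 against 20.0 to 49.2), skeletal muscle (694 against 281 to 546) and erythroid cells (2321 against 997 to 1661). All 9 macrophage and monocyte markers were found, Csf1r, Cd68 and Itgam among them, and their summed level was 101575 to 169711 normalized reads over both tables. RNA of other cells was also present: 7 fibroblast markers summed to 46196 to 110066 normalized reads. In such bulk libraries fewer cells of a type and less RNA per cell cannot be told apart. Each library is a pool of rats, so p-values measure the spread between pools. Normalized reads are reads divided by a size factor for the library, not by gene length, and each week was normalized in its own table, so levels are compared only within a gene and a week.

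At 4 weeks no interferon response gene passed the test for OA against sham. A gene was called at an adjusted p under 0.05 in limma with a log2 fold change of at least 0.5 either way, and 0 of 34 members were called, as were 0.0% of the 14861 genes tested. The smallest adjusted p of a member was 0.570. On the log2(normalized reads + 1) scale used for every fold change here, 30 members were lower in OA and 4 higher, and 42.9% of all genes tested were lower and 57.1% higher. The median log2 fold change of the members was -0.14, against 0.03 for all genes tested. With DESeq2 the medians were -0.16 and -0.12 over all 30643 genes, and with every gene that had a read -0.14 and -0.08, so the gap between members and all genes was smaller there. Both of these backgrounds include genes with a mean under 10, whereas every member had a mean of at least 10. At an unadjusted p under 0.05 in limma, 2 members were lower and 0 higher, against a background of 3.82% and 4.1% of all genes. In no member did the OA and sham groups lie apart without overlap, which 0.693% of all genes did with OA lower and 1.18% with OA higher. DESeq2 on the recovered reads gave an adjusted p under 0.05 for 0 members and for 0.247% of the genes it tested, 0.0647% lower and 0.182% higher in OA, and 0.159% also passed the fold minimum. edgeR gave 0 members and 0.0% of genes. At an unadjusted p under 0.05, DESeq2 gave 2 members and edgeR 3, against 1389 and 1212 of the 14861 genes tested in limma.

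At 12 weeks 0 of 34 members were called, against 0.0% of the 14666 genes tested, and the smallest adjusted p of a member in limma was 0.332. The members lower in OA were 26 and those higher were 8, while 52.5% of all genes tested were lower and 47.5% higher. Their median log2 fold change was -0.13, against -0.01 for all genes. With DESeq2 the medians were -0.15 and 0.03 over all 30643 genes, and with every gene that had a read -0.13 and 0.03. The gap was thus wider in these fits at 12 weeks, with genes of a mean under 10 again included. At an unadjusted p under 0.05 in limma, 3 members were lower and 0 higher, against 6.62% and 5.75% of all genes. Tap1 was the 1 member with all OA libraries below all sham libraries, a pattern shown by 3.44% of all genes, and 0 members had all OA libraries above, against 2.85%. DESeq2 gave an adjusted p under 0.05 for 0 members and 0.932% of genes, 0.268% lower and 0.664% higher in OA, and 0.671% also passed the fold minimum. edgeR again gave 0 members and 0.0% of genes. At an unadjusted p under 0.05, DESeq2 gave 5 members and edgeR 3, against 1744 and 1833 of the 14666 genes tested in limma.

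**Figure D1:**
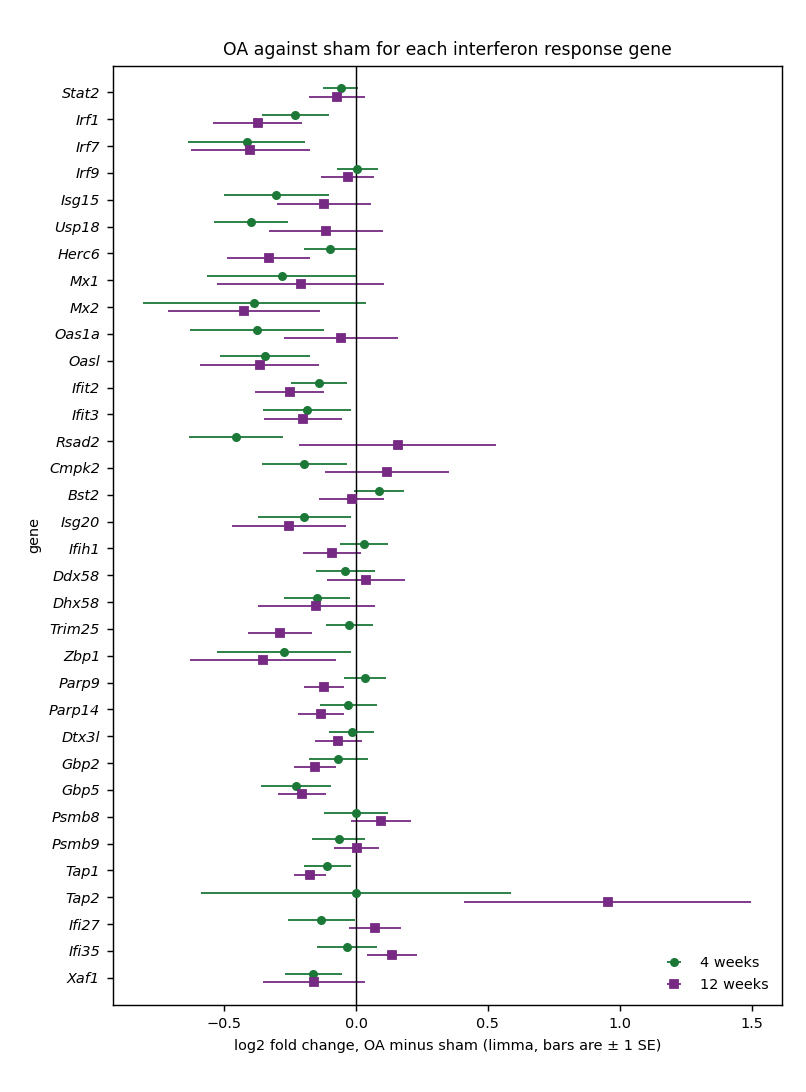
The log2 fold change of OA over sham (x axis, limma, bars of 1 SE either side) is shown for each of the 34 genes (y axis) at 4 weeks (circles) and 12 weeks (squares). Points lie left of 0 for 30 genes at 4 weeks and for 26 at 12 weeks, and the bars of Tap2 are the widest.

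The 95% interval of the log2 fold change excluded 0 for 2 members at 4 weeks and 3 at 12 weeks. It lay wholly between -0.5 and 0.5 for 19 of 34 members at 4 weeks and for 15 of 34 at 12 weeks. For 15 members at 4 weeks and 17 at 12 weeks it reached below -0.5, so a fall of the size used for a call was not excluded for them by these libraries. For 2 members at 4 weeks and 3 at 12 weeks it reached above 0.5.

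The same 22 of 34 members were lower in OA in both tables, against 26.3% of the 14420 genes tested in both, and 0 were higher in both, against 32.1%. No p is attached to these counts, since genes measured in the same libraries are not independent. The 22 included Irf1, Irf7, Isg15, Usp18, Mx1, Mx2, Oasl, Ifit2, Ifit3, Gbp2, Gbp5 and Tap1.

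Among the 4 regulators, Irf1 and Irf7 had the lowest fold changes at both weeks and Stat2 and Irf9 were near 0. Irf7 is the transcription factor that amplifies type I interferon production. At 4 weeks the OA libraries held 963, 1118, 2014, 1608 and 891 normalized reads of Irf7 and the sham libraries 1590.3, 1612, 2170.1, 1921 and 1221. OA replicates 1, 2 and 5 lay below every sham library and OA replicates 3 and 4 within the sham range. The difference on the log2 scale was -0.41 ± 0.22 (SE, n = 5 and 5, limma adjusted p = 0.648). At 12 weeks the OA libraries held 2001, 2305, 1909 and 2875 normalized reads of Irf7 and the sham libraries 4478, 3472, 2060.5 and 2399. Sham replicates 1 and 2 were higher than any OA library, and sham replicates 3 and 4 lay within the OA range. Its log2 fold change was then -0.40 ± 0.23 (SE, n = 4 and 4, limma adjusted p = 0.480).

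Irf1, the regulator induced most directly by interferon gamma, had 4682, 5142, 4449, 4699.7 and 5331 normalized reads in OA at 4 weeks and 7641, 6264, 5039, 5339.6 and 4621 after sham surgery. Its sham replicates 1, 2 and 4 exceeded every OA library. At 12 weeks Irf1 stood at 7376, 7583, 6724 and 4868 in OA and at 7785, 6765, 10799.8 and 9030.3 in sham. OA replicate 4 was the lowest and sham replicate 3 the highest library, while Irf7, Mx2 and Rsad2 did not peak in that sham library. The log2 fold changes of Irf1 were -0.23 ± 0.13 (SE) at 4 weeks and -0.37 ± 0.17 at 12 weeks, with limma adjusted p of 0.659 and 0.404.

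Stat2, a transcription factor of type I signaling, ranged from 1645 to 1800.0 normalized reads in OA and from 1695 to 1969 in sham at 4 weeks. At 12 weeks it was 2141, 2544, 2217 and 2374 in OA and 3007, 2411, 2099.9 and 2293 in sham. Groups overlapped at both weeks, and the log2 fold changes were -0.06 ± 0.07 and -0.07 ± 0.11 (SE, limma adjusted p = 0.821 and 0.799). Irf9, the DNA-binding partner of Stat2, was 987, 995, 1086, 997 and 975 in OA and 1055, 962, 1130.3, 1002 and 885 in sham at 4 weeks. At 12 weeks Irf9 was 1072, 1302, 1017 and 1272 in OA and 1274, 1262, 1025 and 1194 in sham. Its log2 fold changes were 0.01 ± 0.08 and -0.03 ± 0.10 (SE, limma adjusted p = 0.987 and 0.907), and the sign at 4 weeks turned to -0.01 with TMM scaling.

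**Figure D2:**
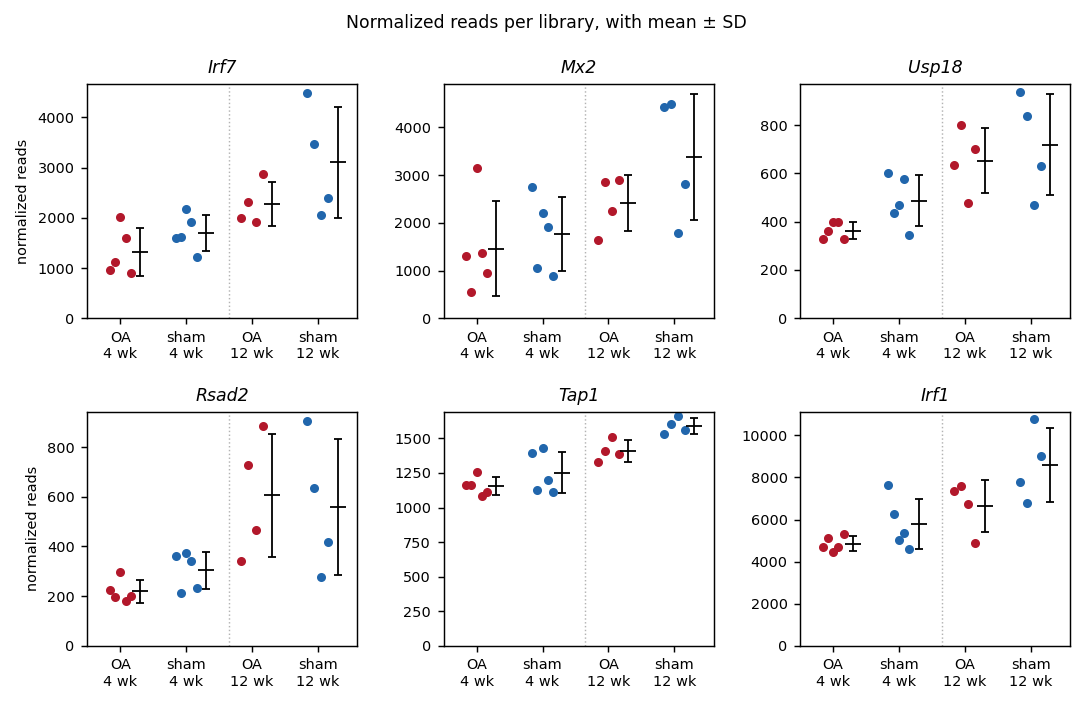
Normalized reads (y axis, from 0) of 6 interferon response genes are plotted for each library, red for OA and blue for sham, with mean ± SD beside them; the dotted line parts the 4-week and 12-week tables, which were normalized separately. Groups overlap in every panel except Tap1 at 12 weeks, where the OA libraries reach 1512 and the sham libraries start at 1529.

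Usp18 and Rsad2 were the 2 members at an unadjusted p under 0.05 at 4 weeks. Usp18, which removes Isg15 from proteins and dampens signaling at Ifnar2, was at 328, 362, 398, 399 and 329.7 normalized reads in OA and at 603, 437, 469, 578 and 345 in sham. Sham replicate 5 alone lay within the OA range. Usp18 thus had a log2 fold change of -0.40 ± 0.14 (SE, limma adjusted p = 0.570), and its adjusted p ranged from 0.214 to 0.858 over the alternatives. At 12 weeks Usp18 was 634, 802, 477 and 701 in OA and 939, 837, 471 and 631 in sham. Sham replicates 3 and 4 lay below the OA median there, and the log2 fold change was -0.11 ± 0.22 (SE, limma adjusted p = 0.841), turning to 0.03 without sham replicate 1 and likewise without OA replicate 3.

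Rsad2 encodes viperin, an antiviral enzyme that makes a chain-terminating nucleotide. At 4 weeks it was 224, 198, 295, 180.3 and 199.5 normalized reads in OA and 360.1, 214, 374, 339.9 and 234 in sham. Sham replicates 1, 3 and 4 were above every OA library, and OA replicate 3 was the high one of its group. Its log2 fold change was -0.45 ± 0.18 (SE, limma adjusted p = 0.595, range over the alternatives 0.315 to 0.858), the lowest of the 34 members at 4 weeks. At 12 weeks Rsad2 was 341, 728, 468 and 886 in OA and 905, 635, 277 and 416 in sham. Both groups spanned nearly the same range, and the log2 fold change was 0.16 ± 0.37 (SE, limma adjusted p = 0.875). It was -0.06 without OA replicate 4 and -0.13 without sham replicate 3.

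Isg15, the ubiquitin-like modifier, and Herc6, an enzyme that attaches it, were lower in OA at both weeks without passing the test. Isg15 was 225 ± 47.0 (SD, n = 5) in OA and 284 ± 93.0 in sham at 4 weeks, and 339 ± 34.1 (n = 4) and 378 ± 105 at 12 weeks. Herc6 was 717 ± 88.7 and 768 ± 78.3 at 4 weeks, and 927 ± 54.2 in OA and 1194 ± 287 in sham at 12 weeks, where its log2 fold change was -0.33 ± 0.16 (SE, limma adjusted p = 0.420).

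Of the 10 antiviral effectors, 9 were lower in OA at 4 weeks and 8 at 12 weeks, with medians of -0.24 and -0.20 on the log2 scale and 0 called at either week. Mx2, a dynamin-like GTPase that restricts viruses, spread the most among them at 4 weeks. Its 4-week values were 1299, 543, 3152, 1364 and 944 in OA and 2743, 1061, 2203, 1907 and 891 in sham. OA replicate 3 was the highest of all 10 libraries and OA replicate 2 the lowest. OA and sham differed by a log2 fold change of -0.39 ± 0.42 (SE, limma adjusted p = 0.808). At 12 weeks Mx2 was 1651, 2863, 2249 and 2893 in OA and 4419.9, 4500.0, 1788 and 2806 in sham. Sham replicates 1 and 2 stood above the rest, and sham replicates 3 and 4 lay within the OA range, with a log2 fold change of -0.42 ± 0.29 (SE, limma adjusted p = 0.545). Mx1, its relative, was also highest in OA replicate 3 at 4 weeks, with 2389, and at 12 weeks it was highest in sham replicate 1, with 4153, where Mx2 was highest in sham replicate 2.

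Bst2, or tetherin, which holds budding viruses at the cell surface, was the antiviral effector with a higher mean in OA at 4 weeks. It was 452, 411, 462, 432 and 478 in OA and 440.2, 366, 367, 493 and 448 in sham. Sham replicate 4 was above every OA library, and the log2 fold change was 0.09 ± 0.10 (SE, limma adjusted p = 0.808). At 12 weeks the values were 509.6, 577, 561 and 577 in OA and 694, 627, 463 and 495 in sham, and the log2 fold change was -0.02 ± 0.12 (SE, limma adjusted p = 0.960). Cmpk2, the mitochondrial kinase beside Rsad2 in the genome, joined Rsad2 as the other effector with a higher mean in OA at 12 weeks, with 445 ± 88.9 (SD, n = 4) against 424 ± 143. Oas1a and Oasl, of the oligoadenylate synthetase family, and Ifit2 and Ifit3, which bind viral RNA, were lower in OA at both weeks with limma adjusted p from 0.443 to 0.922. Mx1 with Mx2, and Oas1a with Oasl, belong to families with close relatives, and how reads shared between relatives were assigned is not given in the sources used here.

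Among the 5 sensors of nucleic acids and their partners, Trim25 was at an unadjusted p under 0.05 at 12 weeks. Trim25 attaches ubiquitin in the pathway of the RNA sensor RIG-I, the product of Ddx58. At 12 weeks it was 1004, 1309, 1204 and 1152 in OA and 1650.4, 1493, 1115 and 1469.8 in sham. Sham replicate 3 lay among the OA libraries and the other sham libraries above them all. Its log2 fold change was -0.29 ± 0.12 (SE, limma adjusted p = 0.384), with adjusted p from 0.108 to 0.765 over the alternatives. At 4 weeks Trim25 was 1066, 940.4, 1046, 930.5 and 871 in OA and 899.7, 1014, 884, 1019.6 and 1128 in sham, with a log2 fold change of -0.03 ± 0.09 (SE, limma adjusted p = 0.940). Ifih1, which encodes the RNA sensor MDA5, was 936, 866, 1135, 956 and 911 in OA and 1087, 905, 849, 942 and 911 in sham at 4 weeks. At 12 weeks Ifih1 was 1113, 1232, 1108 and 1239 in OA and 1495, 1373, 1076 and 1096 in sham. Its groups overlapped at both weeks, and the log2 fold changes were 0.03 ± 0.09 and -0.09 ± 0.11 (SE, limma adjusted p = 0.929 and 0.743), the first of which rested on OA replicate 3, without which it was -0.03. Zbp1, a sensor of left-handed nucleic acids, was lower in OA at both weeks, with log2 fold changes of -0.27 ± 0.25 and -0.35 ± 0.28 (SE, limma adjusted p = 0.774 and 0.604).

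Parp9, a poly(ADP-ribose) polymerase family member that works with the ubiquitin ligase Dtx3l, was 1660.5, 1927, 2018, 1838 and 1638 in OA and 1945, 1794, 1685, 1746 and 1677 in sham at 4 weeks. At 12 weeks it was 2087, 2267, 2066 and 2142 in OA and 2509, 2437, 2368 and 2021 in sham. Sham replicates 1, 2 and 3 were then above every OA library, and the log2 fold changes were 0.04 ± 0.08 at 4 weeks and -0.12 ± 0.08 at 12 weeks (SE, limma adjusted p = 0.910 and 0.524). Parp14 and Dtx3l were lower by at most 0.13 on the log2 scale.

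Gbp5 is a guanylate-binding protein gene that promotes inflammasome assembly and carries the ISRE core shown above. At 12 weeks it was 619.6, 761, 756 and 705 in OA and 883, 879, 782 and 726 in sham. Sham replicate 4 alone lay within the OA range. Gbp5 thus had a log2 fold change of -0.20 ± 0.09 (SE, limma adjusted p = 0.402), with adjusted p from 0.301 to 0.768 over the alternatives. At 4 weeks Gbp5 was 518, 561, 687, 498 and 577 in OA and 729, 590.4, 882, 614 and 543 in sham, with the highest level in sham replicate 3. Its log2 fold change was -0.23 ± 0.13 (SE, limma adjusted p = 0.672), and that of its relative Gbp2 was -0.07 at 4 weeks and -0.15 at 12 weeks.

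Tap1 and Tap2 encode the transporter that carries peptides to MHC class I. Tap1 at 12 weeks was 1328, 1409, 1512 and 1385 in OA and 1529, 1602, 1662 and 1562 in sham. Every OA library lay below every sham library, OA replicate 3 and sham replicate 1 being the closest. The size of the difference was -0.17 ± 0.06 on the log2 scale (SE, 4 of 4 OA libraries lower, limma adjusted p = 0.332), with adjusted p from 0.238 to 0.751 over the alternatives, and it is under the 0.5 used for a call. At 4 weeks Tap1 was 1164, 1165, 1255, 1080.0 and 1115 in OA and 1394, 1125, 1427, 1201 and 1109 in sham, with a log2 fold change of -0.11 ± 0.09 (SE, limma adjusted p = 0.751).

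Tap2 was measured on few reads. It was 11.8, 15.2, 15.1, 6.65 and 4.34 normalized reads in OA and 5.53, 9.69, 32.5, 2.34 and 16.6 in sham at 4 weeks, and 6.11, 16.3, 21.4 and 11.8 in OA and 5.29, 1.72, 15.3 and 8.04 in sham at 12 weeks. The level of 3 reads lay between 2.06 and 6.96 normalized reads across the 18 libraries, so several of these values are at or near it. The log2 fold changes were 0.00 ± 0.59 and 0.95 ± 0.54 (SE, limma adjusted p = 0.999 and 0.486), and the latter, the highest of all members, was not distinguishable from 0. Psmb8 and Psmb9, inducible subunits of the proteasome, had log2 fold changes of 0.00 and -0.07 at 4 weeks and 0.10 and 0.00 at 12 weeks.

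Ifi35, a partner of Nmi in interferon signaling, was 468, 404, 508, 526 and 439 in OA and 504, 448, 608, 448 and 405 in sham at 4 weeks. At 12 weeks Ifi35 was 545, 557, 553 and 613 in OA and 533, 568, 427 and 546 in sham, where sham replicate 3 was the low library. The log2 fold changes were -0.03 ± 0.11 and 0.14 ± 0.09 (SE, limma adjusted p = 0.940 and 0.557). Without sham replicate 3 the 4-week value was 0.05. Ifi27 was 4547 ± 272 (SD, n = 5) in OA and 5063 ± 1144 in sham at 4 weeks, and 5706 ± 326 (n = 4) and 5459.7 ± 734 at 12 weeks. Xaf1, which binds the apoptosis inhibitor XIAP, was lower in OA by 0.16 on the log2 scale at both weeks, with a limma adjusted p of at most 0.746.

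**Figure D3:**
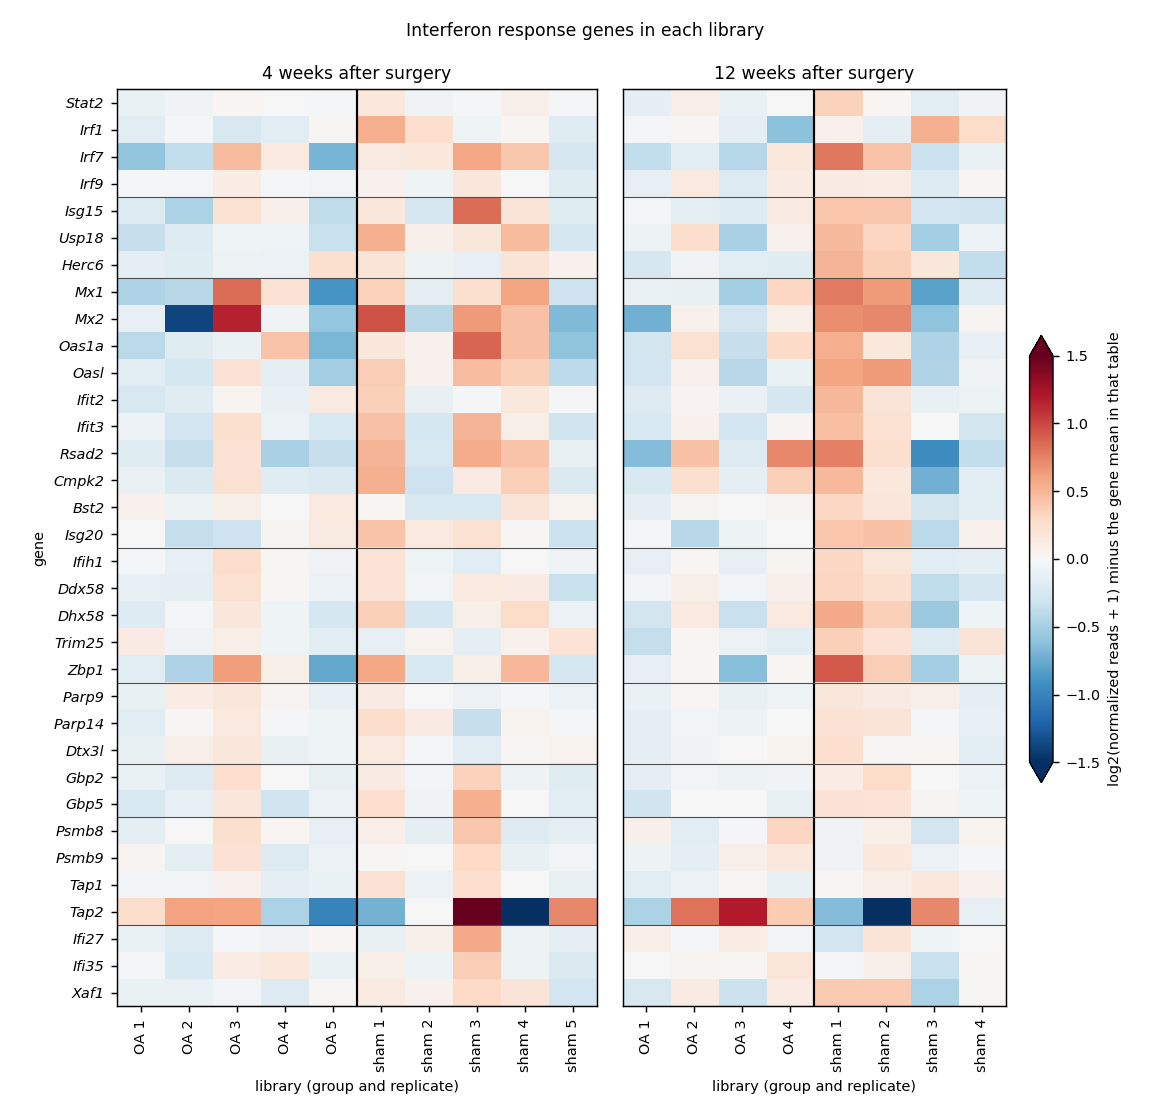
Each cell is the log2(normalized reads + 1) of an interferon response gene (y axis, grouped by role) in a library (x axis, OA then sham) minus the mean of that gene in its table. Warm columns mark OA replicate 3 and sham replicates 1, 3 and 4 at 4 weeks and sham replicates 1 and 2 at 12 weeks, and Mx2 and Tap2 show the strongest colors.

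Across genes the members tended to be high or low in the same libraries. For each library, the mean over the 34 genes of the log2 deviation from the gene's mean in its table was taken as a description. At 4 weeks it was -0.13, -0.18, 0.19, -0.05 and -0.22 in OA replicates 1 to 5 and 0.23, -0.06, 0.27, 0.10 and -0.15 in sham replicates 1 to 5. The groups overlapped, with OA replicate 3 among the sham libraries and sham replicates 2 and 5 among the OA libraries. Sham replicate 3 held the highest value of 16 members, sham replicate 1 of 8 and OA replicate 3 of 7.

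At 12 weeks the mean deviation was -0.19, 0.05, -0.13 and 0.06 in OA replicates 1 to 4 and 0.33, 0.19, -0.22 and -0.08 in sham replicates 1 to 4. Sham replicate 1 was highest for 21 members and sham replicate 2 for 6, whereas sham replicate 3 was the lowest library for 14. The spread of these means was 0.25 (SD, n = 4) in sham and 0.13 in OA at 12 weeks, and 0.18 and 0.16 (n = 5) at 4 weeks.

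**Figure D4:**
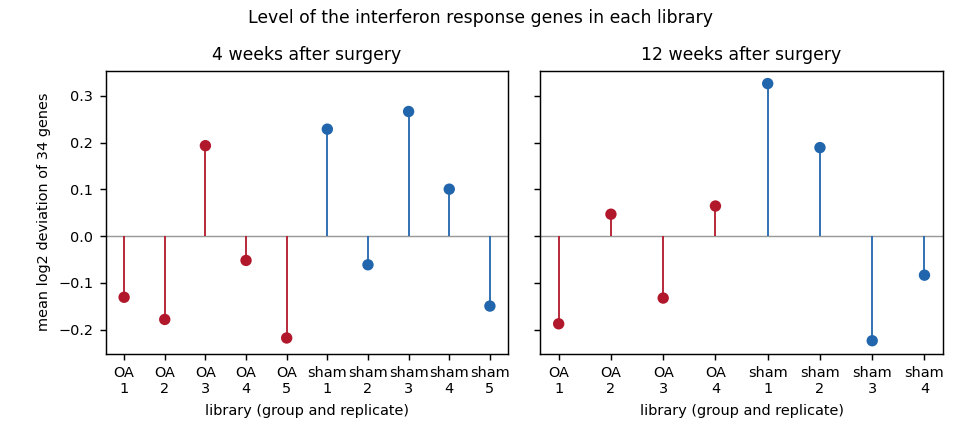
The mean log2 deviation of the 34 interferon response genes from their table means (y axis) is drawn for each library (x axis), red for OA and blue for sham. It runs from -0.22 to 0.27 at 4 weeks and from -0.22 to 0.33 at 12 weeks, with both groups on either side of 0.

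Single libraries set the size of the median difference. Without sham replicate 1 the 12-week median log2 fold change of the members was -0.01 in place of -0.13, and 20 of 34 were lower. In that fit the median of all genes was also -0.01, with 52.7% of genes lower. The members' median was -0.06 without sham replicate 2, -0.08 without OA replicate 3 and -0.20 without sham replicate 3. Over all genes the medians of these fits were -0.005, -0.007 and -0.018. At 4 weeks the members' median was -0.08 without sham replicate 1 and between -0.11 and -0.17 without any other library. Without sham replicate 3, the shallow library, it was -0.12 with 26 of 33 members lower, Tap2 then having a mean under 10. All genes had a 4-week median of 0.035 without sham replicate 1 and 0.006, with 48.1% lower, without sham replicate 3. Members at an unadjusted p under 0.05 at 4 weeks numbered 8 without sham replicate 5, 6 without OA replicate 3 and 1 without OA replicate 2, 4 or 5 or sham replicate 1 or 4. Over all genes these fits gave 1474 of 14934, 810 of 14917 and 839 to 1542 of at least 14882. At 12 weeks the members at that p numbered 11 without sham replicate 3, 8 without sham replicate 4 and 1 without OA replicate 4 or sham replicate 1. Over all genes those fits gave 1886 of 14663, 1868 of 14691, 957 of 14651 and 1305 of 14699. With sample quality weights the 12-week median of the members was -0.23, with 30 members lower and 10 at an unadjusted p under 0.05. All genes then had a median of -0.015, 53.4% were lower and 2087 of 14666 were at that p. In each of these fits 0 members were called.

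Markers of other cells varied between the same libraries. The sum of 9 neutrophil markers, S100a8 and S100a9 among them, was 10248 and 11883 normalized reads in OA replicates 1 and 3 at 4 weeks, of which replicate 3 was the high and replicate 1 a low library for the interferon genes, and it was 1005 to 4199 in the other libraries. At 12 weeks it was highest in sham replicate 1 with 4211, followed by sham replicate 4 with 3457, and it was 1044 to 3212 elsewhere. Sham replicate 1 was also the highest library for the interferon genes, whereas sham replicate 4 had a mean deviation of -0.08 for them. Sham replicate 2, next highest for the interferon genes with 0.19, had 1392 normalized reads of the neutrophil markers. Of 7 neutrophil markers tested, 0 were at an unadjusted p under 0.05 in limma at either week. The fibroblast markers, 7 of 8 listed, moved with the groups at 12 weeks: they summed to 81834 to 107313 in OA and 54987 to 86349 in sham, and 7 of 7 were at an unadjusted p under 0.05, 6 of them higher in OA. At 4 weeks the same sums were 69629 to 109652 and 46196 to 110066, with 6 of 7 higher in OA and 1 at an unadjusted p under 0.05. Of the 5 markers of plasmacytoid dendritic cells, known as strong producers of type I interferon, the sum was 175 to 238 in OA and 111 to 223 in sham at 4 weeks and 239 to 339 and 125 to 272 at 12 weeks. Most of this sum was Pacsin1, with 140 to 198 in OA and 64.9 to 115 in sham at 4 weeks. The other markers had lower means in OA at 4 weeks: Siglech 3.36 against 11.8, Spib 6.77 against 12.9, Ccr9 7.51 against 8.69 and Bcl11a 20.9 against 32.3. At 12 weeks Spib and Bcl11a had higher means in OA and Siglech and Ccr9 lower ones. Pacsin1, on that list, was higher in every OA library than in any sham library at 4 weeks, with a log2 fold change of 0.98 ± 0.16 (SE, limma adjusted p = 0.253, DESeq2 adjusted p = 0.000876), while Bcl11a, on the same list, was lower at 4 weeks at an unadjusted p under 0.05. Siglech, a defining marker, was at 37.1 normalized reads in sham replicate 3 at 4 weeks and at 1.37 to 6.93 in the other 4-week libraries.

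Other marker lists also held more genes on one side at 12 weeks, where 26 of 34 interferon genes and 52.5% of all genes tested were lower in OA. Higher in OA were 0 of 6 dendritic cell markers, 0 of 8 markers of mast cells and eosinophils, 1 of 6 markers of T and NK cells and 1 of 6 endothelial markers. At an unadjusted p under 0.05 in limma were 1 of 6, 0 of 8, 1 of 6 and 1 of 6 of these. Among all genes 6.62% were at that p and lower and 5.75% higher, and 0 of these markers were called. Clec9a, of dendritic cells, and Ncr1, of NK cells, were lower in OA without overlap, with log2 fold changes of -0.34 ± 0.12 and -0.83 ± 0.29 (SE, limma adjusted p = 0.349 and 0.332), and endothelial Cdh5 had -0.35 ± 0.11 (limma adjusted p = 0.308). Ncr1 was measured on few reads, with 5.11 to 12.9 normalized reads in OA and 13.8 to 14.4 in sham, and DESeq2 gave it no adjusted p. Of the macrophage and monocyte markers 8 of 9 were higher in OA. At an unadjusted p under 0.05 in limma were 1 of these 9 and 2 of 5 skeletal muscle markers. Cd14, the co-receptor for lipopolysaccharide, was higher without overlap, with a log2 fold change of 0.37 ± 0.09 (SE, limma adjusted p = 0.278, DESeq2 adjusted p = 0.0283). All 5 skeletal muscle markers were higher, among them Acta1 without overlap, with 0.79 ± 0.17 (SE, limma adjusted p = 0.265, DESeq2 adjusted p = 0.00463). The part of these cells in the levels of the interferon genes was not tested.

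The members differed among themselves in how much they varied within a group. Besides Tap2, with its few reads, the SD of log2 values within groups went from 0.82 for Mx2 to 0.07 for Stat2 at 4 weeks, and from 0.68 for Rsad2 to 0.07 for Tap1 at 12 weeks. The median over members was 0.21 at 4 weeks and 0.25 at 12 weeks, and over all genes tested it was 0.22 and 0.17. Over all genes with a mean of at least 100 it was 0.17 and 0.13, below the members at both weeks. Mx1, Mx2, Zbp1, Oas1a and Irf7 were above 0.38 at both weeks, while Parp9, Dtx3l and Tap1 stayed under 0.14.

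Whether OA differed from sham by another amount at 12 than at 4 weeks was tested in limma with both tables together, as an interaction of surgery and week on the log2 CPM (reads scaled to library size) of both. Of 34 members, 0 were at an adjusted p under 0.05, as were 0.0% of 14420 genes, and 0 were at an unadjusted p under 0.05, against 0.804% of genes with a lower difference at 12 weeks and 2.19% with a higher one. The smallest adjusted p of a member was 0.962. The difference of log2 fold changes, 12 minus 4 weeks, was -0.23 ± 0.15 (SE) for Trim25 and 0.65 ± 0.43 for Rsad2, the members with the smallest unadjusted p. The median over members was 0.02. A different response at 4 and 12 weeks was therefore not detectable for any of the 34 genes.

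A wider list of 108 symbols of interferon pathway genes that holds none of the 34 was read in the same fits. Tmem173 and Mb21d1, which were not found, are older symbols of Sting1 and Cgas, which are also on the list and were tested. The tables hold 99 of the 108 symbols and 88 had a mean of at least 10 at each week. In limma 0 were called at either week. At 4 weeks 57 were lower in OA and 31 higher, with a median log2 fold change of -0.05, and 9 were lower and 2 higher at an unadjusted p under 0.05, against 3.82% and 4.1% of all genes. At 12 weeks 66 were lower and 22 higher, with a median of -0.12, and 19 were lower and 1 higher at an unadjusted p under 0.05, against 6.62% and 5.75%. Groups did not overlap for 2 genes lower in OA and 1 higher at 4 weeks and for 10 lower and 1 higher at 12 weeks, against 0.693%, 1.18%, 3.44% and 2.85% of all genes.

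Interferon genes themselves were at the limit of the measurement. Of 12 ligand genes listed 11 were in the tables and 0 reached a mean of 10. Ifnb1, the gene of interferon beta, was at 0 in 14 of 18 libraries and reached 2.32 normalized reads in sham replicate 3 at 4 weeks, the worth of 1 read there. Ifng, the gene of interferon gamma, reached 9.28 in the same library, which is 4 reads, and 4.85 or less in all others. Ifna2 was at 0 in 17 of 18 libraries. A difference in ligand transcripts between OA and sham was not detectable at this depth.

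The receptor chains and their kinases had log2 fold changes from -0.25 to 0.24 at 4 weeks and from -0.23 to 0.21 at 12 weeks. Il10rb, a chain shared by the receptors of interleukin-10 and of lambda interferons, was 1136, 1152, 1171, 1237 and 1064 in OA and 1123, 979, 972, 968 and 980.4 in sham at 4 weeks. At 12 weeks Il10rb was 1249.6, 1251, 1234 and 1388 in OA and 1110.1, 1218, 959 and 1161 in sham. Its groups did not overlap at 12 weeks, and its log2 fold changes were 0.20 ± 0.07 and 0.21 ± 0.08 (SE, limma adjusted p = 0.570 and 0.368). Ifngr1, which binds interferon gamma, had a log2 fold change of 0.24 ± 0.10 at 4 weeks (SE, limma adjusted p = 0.595) and 0.15 ± 0.09 at 12 weeks.

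The chemokines Cxcl9, Cxcl10 and Cxcl11, which draw T cells through the receptor Cxcr3, had lower means in OA at both weeks. Cxcl10 was 262, 278, 214, 245 and 234 in OA and 464, 340.3, 337, 334 and 246 in sham at 4 weeks. Sham replicate 5 was the 1 sham library within the OA range. At 12 weeks Cxcl10 was 485, 655, 506 and 456 in OA and 844, 882, 619 and 699.9 in sham, with OA replicate 2 above the lowest sham library. Its log2 fold changes were -0.46 ± 0.14 and -0.53 ± 0.14 (SE, limma adjusted p = 0.511 and 0.278).

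Cxcl9, a target of interferon gamma, was 214, 275, 329.6, 287 and 421 in OA and 476, 466, 566, 363 and 308 in sham at 4 weeks. At 12 weeks Cxcl9 was 364, 354, 491 and 275 in OA and 537, 461, 742 and 613 in sham. OA replicate 5 at 4 weeks and OA replicate 3 at 12 weeks were the high OA libraries. The log2 fold changes were -0.52 ± 0.19 and -0.67 ± 0.18 (SE, limma adjusted p = 0.575 and 0.278). Cxcl11 was 17.4 ± 3.16 (SD, n = 5) in OA and 27.6 ± 5.81 in sham at 4 weeks without overlap, and 25.0 ± 7.89 (n = 4) and 34.7 ± 6.29 at 12 weeks, with limma adjusted p of 0.554 and 0.445.

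**Figure D5:**
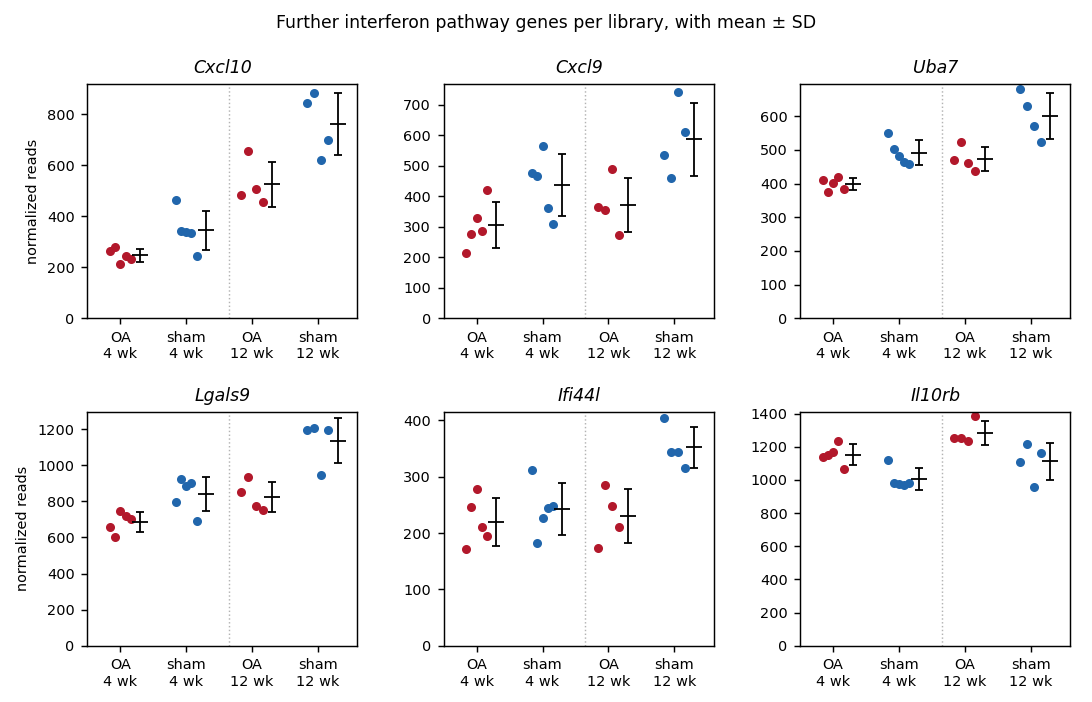
Normalized reads (y axis, from 0) of 6 further interferon pathway genes are plotted for each library, red for OA and blue for sham, with mean ± SD; the dotted line parts the 4-week and 12-week tables. Uba7 at both weeks and Lgals9 and Ifi44l at 12 weeks show no overlap between groups, as does Il10rb, higher in OA, at 12 weeks.

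Uba7, the enzyme that activates Isg15 for transfer to proteins, was 412, 375, 402, 419 and 385 in OA and 549.7, 504, 483, 465 and 458 in sham at 4 weeks. At 12 weeks Uba7 was 471, 524, 461 and 436 in OA and 680.1, 632, 569.8 and 524 in sham. Every OA library was below every sham library at both weeks, narrowly at 12 weeks. Its log2 fold changes were -0.30 ± 0.07 and -0.34 ± 0.09 (SE, limma adjusted p = 0.403 and 0.278). The lowest adjusted p over the alternatives was 0.0367 at 4 weeks and 0.0957 at 12 weeks, each the most favourable of many fits. With DESeq2 on all 4-week libraries the smallest adjusted p of any pathway gene was 0.0547.

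DESeq2 on the recovered reads gave an adjusted p under 0.05 at 12 weeks for 4 of the pathway genes, all lower in OA, against 0.268% of the genes it tested. Lgals9, the gene of galectin-9, was 849.9, 932, 772 and 751 in OA and 1194, 1208, 948 and 1196 in sham at 12 weeks. The groups did not overlap, and the log2 fold change was -0.46 ± 0.10 (SE, limma adjusted p = 0.265, DESeq2 adjusted p = 0.0119, highest over the alternatives 0.637). Ifi44l, an interferon-induced gene, was 174, 286, 249 and 211 in OA and 404, 344, 345 and 316 in sham. Its groups did not overlap, with a log2 fold change of -0.63 ± 0.15 (SE, limma adjusted p = 0.265, DESeq2 adjusted p = 0.0218, highest over the alternatives 0.637). Ifitm1, a membrane protein that blocks virus entry, was 607, 611, 569 and 499.8 in OA and 733, 780.4, 664 and 744 in sham. Again the groups did not overlap, and the log2 fold change was -0.35 ± 0.08 (SE, limma adjusted p = 0.265, DESeq2 adjusted p = 0.0369, highest over the alternatives 0.637). Cxcl10 was the fourth, with a DESeq2 adjusted p of 0.0440 and a highest value over the alternatives of 0.663. Ifi44l and Cxcl10 also passed the fold minimum of 0.5 in DESeq2. At 4 weeks DESeq2 gave 0 of the pathway genes.

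The 4-week values of these genes differed less. Lgals9 had a log2 fold change of -0.29 ± 0.09 (SE, limma adjusted p = 0.554), Ifi44l of -0.14 ± 0.15 and Ifitm1 of -0.05 ± 0.15. The difference between weeks was closest to the threshold for Ifi44l, with -0.45 ± 0.22 (SE, limma adjusted p = 0.962), and it did not pass the test.

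Further pathway genes lower in OA at an unadjusted p under 0.05 at both weeks were Cd274, Helz2 and Samhd1. Cd274, the ligand of the inhibitory receptor PD-1, was 309 ± 29.9 (SD, n = 5) in OA and 369.6 ± 41.4 in sham at 4 weeks, and 519 ± 81.3 (n = 4) and 672 ± 58.7 at 12 weeks without overlap. Helz2, a helicase and nuclear receptor coactivator, had log2 fold changes of -0.25 and -0.22, and Samhd1, which depletes nucleotides needed by viruses, of -0.26 and -0.35. Gbp1, another guanylate-binding protein gene, was 20.7 ± 3.57 in OA and 37.1 ± 8.45 in sham at 4 weeks, with a log2 fold change of -0.80 ± 0.22 (SE, limma adjusted p = 0.403) that was the lowest of the list at 4 weeks, and it was -0.67 ± 0.31 at 12 weeks (limma adjusted p = 0.412).

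At 12 weeks the other pathway genes lower at an unadjusted p under 0.05 were Mov10, Myd88, Slfn2, Nlrc5, Slfn4, Zc3hav1, Cgas, Trim34, Trafd1 and Ifi44, with log2 fold changes from -0.89 for Slfn4 to -0.20 for Zc3hav1 and limma adjusted p from 0.278 to 0.401. Mov10, an RNA helicase that restricts retroviruses, was 843, 802, 734 and 765 in OA and 957, 921, 913 and 922 in sham, without overlap. Myd88, the adaptor of Toll-like receptors, was 1987, 2151, 1912 and 1831 in OA and 2323, 2219.9, 2461 and 2385 in sham, also without overlap. Slfn4, a schlafen gene of myeloid cells, was 5240.2, 7248, 3006 and 4773 in OA and 14556, 11387, 6054 and 6492 in sham. Sham replicates 1 and 2, the libraries highest for the interferon response genes, were also the highest for Slfn4.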

How the data were processed

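RNA of CD11b/c+ synovial cells was sequenced as stranded, ribosomal RNA-depleted, paired-end libraries, each a pool of rats. The authors collected read quality metrics with fastp 0.20.0, aligned reads with STAR 2.7.6a to the rat genome, removed duplicates, counted reads per gene with featureCounts 2.0.0 and deposited, per week, the signal as reads divided by DESeq2 1.24.0 size factors estimated within that table. Strand setting and the handling of reads shared between genes are not given in the sources used here. The deposited log2 fold changes, p-values and score (Wald statistic) columns hold the authors' own comparison and were not used.

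The rows of the 34 genes were found by symbol. Values were whole multiples of 1 step per library (tolerance 0.01, 100.0% of values), which gave the reads; replicate libraries differed beyond sampling noise (chi-square per degree of freedom 5.39 to 35.0 over 32 pairs). For each table, log2(normalized reads + 1) of genes with a mean of at least 10 was fitted in limma 3.58.1 (R 4.3.3) with a trended prior. Benjamini-Hochberg adjustment ran over all genes tested, and calls needed an adjusted p under 0.05 and a log2 fold change of at least 0.5. The difference between weeks was tested in limma on log2 CPM (TMM, prior count 2). Alternatives were other pseudocounts and filters, TMM, edgeR 4.0.16, DESeq2 1.42.0, sample quality weights, a replicate block and leaving out each library. The fits were tested on simulated data with 200 changed genes, of which 100.0% were recovered, with 1 to 19 false calls. The planted changes were larger than that of any member and no library stood apart. The simulation therefore cannot show whether differences of the members' size would be detected. The spread between pools, which exceeds counting error, sets the precision of most values, and the intervals cover it.

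The 34 genes, the wider pathway list and the marker lists were chosen with earlier results of these data known. Genes given in every library were the regulators, members called or at an unadjusted p under 0.05, and the 3 highest and lowest fold changes per table. From the pathway list, genes at that p were named, and 1 other gene is not reported here. Ifna2, Ifnb1, Ifng and the marker genes were named after their values were seen. Of the pathway list, 9 symbols were not analysed here. Promoters came from RefSeq (GRCr8), matched by symbol, and figures were drawn with matplotlib 3.10.9.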

Additional observations from a re-analysis of the deposited data

Results flagged for a closer look

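Single libraries stood far from the other libraries of their group for 5 of 136 gene, week and surgery groups of the interferon response genes, by Dixon's 95% critical values, where chance flags about 1 group in 20. At 4 weeks OA replicate 3 held 1086 normalized reads of Irf9 against 975 to 997 in the other OA libraries, and 262 of Cmpk2 against 192 to 209. OA replicate 5 held 872 of Herc6 against 649.8 to 701. Sham replicate 3, the library with the fewest reads, held 7051 of Ifi27 against 4331 to 5021 in the other sham libraries and 959 of Psmb9 against 719.6 to 786.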

How the results depend on the processing

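No interferon response gene was called under any alternative. Over the 15 genes given in every library, 302 of 326 alternative values at 4 weeks and 240 of 252 at 12 weeks kept their direction. Genes called among all those tested, 0 in limma, numbered 27 with DESeq2 at 4 weeks and 95 at 12 weeks, and 1 at 4 weeks with sample quality weights. Leaving out 1 library gave 0 to 1 at 4 weeks (1 without sham replicate 3) and 0 to 81 at 12 weeks (81 without sham replicate 3, 1 without sham replicate 4). Chosen after seeing the data, fits without sham replicate 3 at 4 weeks gave 1 with edgeR, 40 with DESeq2 and 1 with TMM. The cause was not tested. Replicate numbers did not pair the libraries (correlations -0.13 to 0.30, 1 of 9 numbers closest to its own), and a replicate block gave 1 call at 4 weeks and 0 at 12 weeks, with 7 and 4 members at an unadjusted p under 0.05 in place of 2 and 3. Over all genes the block gave 1036 of 14861 and 2185 of 14666 at that p, in place of 1177 and 1814.

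The directions that turned belonged to values near 0 or of wide error. At 4 weeks Tap2 was 0.017 with a pseudocount of 0.5, 0.27 with quality weights and 0.31 with DESeq2 without sham replicate 3, Irf9 was -0.015 with TMM and -0.017 with edgeR, and Ifi35 was 0.078 with quality weights. Without sham replicate 3 Ifi35 was 0.052 with edgeR, 0.0585 with DESeq2 and 0.047 with TMM, and Ifih1 was -0.0063 with edgeR and -0.010 with TMM. At 12 weeks Rsad2 was -0.22 with quality weights. Leaving out 1 library gave, at 4 weeks, -0.42 to 0.25 for Tap2, -0.092 to 0.054 for Ifi35, -0.040 to 0.049 for Irf9, -0.030 to 0.086 for Ifih1, -0.0042 to 0.071 for Parp9 and -0.064 to 0.023 for Trim25, and at 12 weeks -0.10 to 0.0315 for Irf9, -0.11 to 0.0845 for Bst2, -0.30 to 0.031 for Usp18, -0.13 to 0.44 for Rsad2 and -0.14 to 0.0315 for Stat2. The share of all genes lower in OA at 4 weeks, 42.9%, was 60.7% with every gene that had a read and 59.9% with DESeq2, and at 12 weeks, 52.5%, it was 40.4% with DESeq2. Depth limits Tap2 and the interferon genes most.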
